A study of Homo sapiens with 6 samples.

Results

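The long noncoding RNA loci of the MDA-MB-231 transcriptome were examined after depletion of SAM68. Loci were taken from the deposited expression table by symbol. A locus was included when 1 of its symbols was a numbered long intergenic noncoding RNA (LINC and a number), a numbered small nucleolar RNA (snoRNA) host gene (SNHG and a number), a microRNA host gene (MIR and a number or letters, ending in HG), or 1 of MALAT1, NEAT1, GAS5, MEG3, PVT1, TUG1, MIAT, DANCR, ZFAS1, NORAD and H19. This gave 984 loci of the 74852 in the table, which fall into 909 LINC loci, 45 microRNA host loci, 24 snoRNA host loci and 6 other named loci. GAS5, ZFAS1 and DANCR were placed with the snoRNA hosts, and PVT1 and H19 with the microRNA hosts. MDA-MB-231, a human triple-negative breast cancer line, received control siRNA (si-CTRL, 3 libraries) or siRNA against SAM68 (si-SAM68, 3 libraries). By the sample labels both groups were transfected 2 times and collected 24 h after the last transfection, and 1 µg of total RNA entered a stranded mRNA library protocol. The paper's methods give a different harvest time, medium and extraction kit. All values come from 1 cell line and 1 siRNA pool, and no label says whether the libraries of a group came from separate cultures, so p-values measure the spread between these libraries, which may be technical.

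Long noncoding RNAs are transcribed and often spliced like mRNAs but carry no long conserved reading frame. snoRNA host genes release snoRNAs from their introns, which guide chemical modification of ribosomal RNA, while the spliced exons of several of them, such as GAS5, are translated briefly and removed by nonsense-mediated decay. microRNA host genes carry microRNA hairpins that are cut out of the primary transcript by the Drosha complex, so that the host RNA and the mature microRNA need not change alike. MALAT1 and NEAT1 stay in the nucleus, in speckles and paraspeckles, and SAM68, encoded by KHDRBS1, is a nuclear RNA-binding protein of the STAR family that prefers A- and U-rich sequence and regulates splicing.

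The mature microRNAs carried by the microRNA hosts that changed are shown because they are the best known products of these loci, although these libraries did not measure mature microRNAs. Of the 21 microRNA hosts tested, 18 were matched to RefSeq (GRCh38.p14). Hairpins on the same strand were found in 15 of them, 31 in all. The chromosome of PVT1 was left out of this search, although GENCODE lists 4 microRNA genes inside PVT1. GENCODE also lists 1 inside MIR155HG and 1 inside MIR22HG, where the search found none, so these counts are not complete. Sequences are from RefSeq, written 5′ to 3′, with the seed (bases 2 to 8) in capitals. The first lies in MIR31HG, the next 3 in MIR3142HG, the next 3 in MIR924HG and the last 4 in MIR181A1HG.
miR-31-5p: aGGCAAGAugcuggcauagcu
miR-146a-5p: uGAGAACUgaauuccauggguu
miR-146a-3p: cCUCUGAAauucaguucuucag
miR-3142: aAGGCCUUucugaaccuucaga
miR-924: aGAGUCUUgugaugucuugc
miR-5583-5p: aAACUAAUauacccauauucug
miR-5583-3p: gAAUAUGGguauauuaguuugg
miR-181a-5p: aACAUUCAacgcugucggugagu
miR-181b-5p: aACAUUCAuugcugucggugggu
miR-181a-3p: aCCAUCGAccguugauuguacc
miR-181b-3p: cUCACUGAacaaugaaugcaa
Within the sequences shown, miR-181a-5p and miR-181b-5p had the same seed, and no other pair did.

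The depletion itself was made with the 4 siRNAs listed in the study's reagent table, each of 19 bases. They are shown because every comparison rests on them.
SAM68 siRNA 1: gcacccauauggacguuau
SAM68 siRNA 2: gaaagagcgagugcugaua
SAM68 siRNA 3: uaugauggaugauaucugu
SAM68 siRNA 4: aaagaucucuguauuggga

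KHDRBS1 was counted at 15660.4, 14483 and 14737 in si-CTRL and at 583, 602 and 670.2 in si-SAM68 libraries. Here and throughout, values are normalised read counts (reads on the locus divided by the size factor of the library), and each group's 3 values stand in the order of their replicate numbers. The si-SAM68 mean was 4.13% of the si-CTRL mean (log2 fold change -4.60 with a standard error of 0.083, limma adjusted p = 2.13e-09). The exact permutation test over libraries (two-sided) gave p = 0.1, which is the smallest that 3 against 3 libraries allow. Summed over all loci, the reads recovered from the counts came to 52625492 to 82568487 per library, with 1 read worth 0.920 to 1.25 normalised counts. Reads on overlapping loci may enter these sums more than once. A single rRNA locus took 15.1% of the reads of si-SAM68 replicate 2, which stood apart in this, and 1.83% to 3.17% elsewhere. Of the 7 genes listed as markers of MDA-MB-231, all 7 were above a mean of 10, and the luminal markers CDH1 and EPCAM stayed at or below 9.20 in every library while GATA3 and KRT19 were present. Of 7 markers of other cell types, 3 were above a mean of 10, and the leukocyte, liver and heart markers PTPRC, CD3E, ALB and MYH6 were at or below 13.6 in every library. INS was counted at 140.0, 110.4 and 137 in si-CTRL and 45.3, 47.8 and 42.5 in si-SAM68 libraries (log2 fold change -1.49 with a standard error of 0.180, adjusted p = 0.00133). CDH5 (log2 fold change -1.09, adjusted p = 0.0756) and PECAM1 (-0.75, adjusted p = 0.250), endothelial markers, had lower values in each si-SAM68 library. The summed count of the 7 was 166 to 209 in si-CTRL and 67.0 to 81.0 in si-SAM68. Among the markers that MDA-MB-231 should carry, CAV1 rose (log2 fold change 0.62) and was called in all 6 fits that left out 1 library. KRT8 (log2 fold change 0.31), KRT18 (0.35) and the luminal marker KRT19 (0.37) were also called higher with all libraries, but lost the call in 4, 3 and 5 of those 6 fits, and KRT8 had an adjusted p of 0.0696 with the replicate number as a block. The part of these markers in the results was not tested, and in bulk RNA fewer cells of a type and less RNA per cell cannot be told apart.

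Of the 984 loci, 471 had no read in any library and another 239 had a mean under 10 normalised counts over the 6 libraries, and these 710 were not tested. The untested loci were 684 LINC loci, 24 microRNA hosts and 2 snoRNA hosts, SNHG22 and SNHG25. The 274 tested were thus 225 LINC, 21 microRNA host, 22 snoRNA host and 6 other named loci. The largest means left out were those of LINC00311 (9.91), LINC01277 (9.34) and LINC00111 (9.11), and the smallest kept were those of LINC01512 (10.3), LINC01118 (10.4) and LINC01372 (10.4). All 984 loci together took 0.543% to 0.578% of the reads, and 0.625% in si-SAM68 replicate 2. The median mean count differed between classes, at 1534 for snoRNA hosts, 269.7 for microRNA hosts and 97.9 for LINC loci, against 610.1 over all 18849 loci tested. These class levels are per locus and not per length.

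After SAM68 depletion few of these loci passed a test, in a share close to that of all loci by the study's rule and in a lower share by the adjusted one, and more of them were lower than higher. Without si-SAM68 replicate 3 the adjusted shares came to 3.28% of members and 3.32% of all loci, and without any other single library the members' share was the lower. The study's rule (p of 0.05 or less together with a 1.5-fold change) was applied here to the unadjusted limma p. Over all loci 1445 passed, more than the genes the paper lists at these thresholds from its own analysis, so passing here is not a call by the study. By this rule 23 of 274 members were regulated, 8.39% against 7.67% of all loci tested. Of these, 6 were higher (2.19% against 2.83%) and 17 lower (6.20% against 4.83%). With an adjusted p under 0.05 (limma, Benjamini-Hochberg over all 18849 loci), 16 were called, 5.84% against 10.7% of all loci. Here 3 were higher (1.09% against 4.47%) and 13 lower (4.74% against 6.23%). The adjusted calls had no overlap between the groups in any of the 16, which selection by p favours and which is no separate support. Of the 16, 7 were below a fold change of 1.5. Over all tested members the groups did not overlap, with si-SAM68 higher, at 28 loci (10.2% against 16.6%), and with si-SAM68 lower at 47 (17.2% against 17.3%).

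The median log2 fold change was -0.03 over the 274 loci (118 higher and 156 lower, whether called or not) and 0.005 over all loci tested. By class it was 0.07 for the 22 snoRNA hosts, with 0 adjusted calls, and -0.04 for the 21 microRNA hosts, with 1 higher and 3 lower. It was -0.05 for the 225 LINC loci, with 2 higher and 10 lower. It was 0.01 for the 6 other named loci, with 0 by limma, edgeR or DESeq2 and 2, MALAT1 and MEG3, at an unadjusted limma p under 0.05. Among members with a mean of 200 to 1000 counts, 8 of 75 had an adjusted p under 0.05, 1 higher and 7 lower, and all loci in that range gave 239 higher and 389 lower of 4138. Among the 90 members with a mean of 10 to 50, 2 were called, both lower, beside 28 higher and 73 lower of 3815 loci. With a mean of 50 to 200, 1 of 61 members was called higher and 2 lower, beside 83 higher and 202 lower of 2905 loci. With a mean of 1000 or more, 1 of 48 members was called higher and 2 lower, beside 492 higher and 511 lower of 7991 loci.

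**Figure D1:**
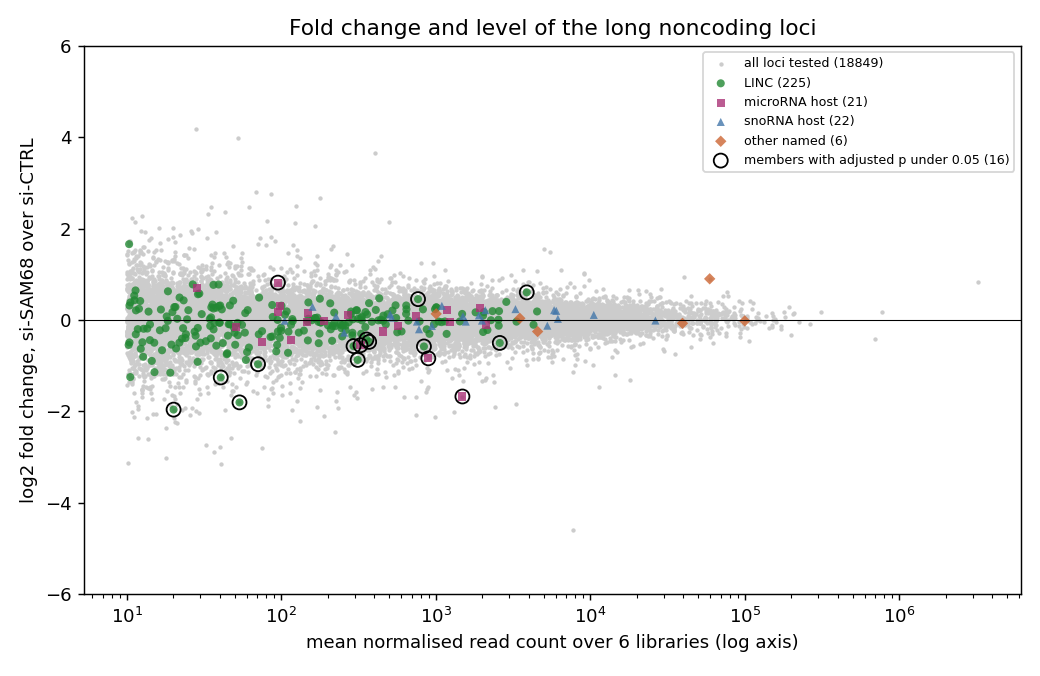
Log2 fold change of si-SAM68 over si-CTRL against the mean normalised read count (log axis) for all 18849 loci tested (grey) and the 274 long noncoding loci, coloured by class. The 16 circled loci have an adjusted p under 0.05, 13 below 0 and 3 above, and the snoRNA hosts lie between -0.27 and 0.31.

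Among microRNA hosts, MIR31HG, the host of miR-31 and a long noncoding RNA known from work on cellular senescence, fell the most. It was counted at 1902, 2434 and 2474 in si-CTRL and 654, 692 and 779.7 in si-SAM68 libraries. The highest si-SAM68 library was far below the lowest si-CTRL library, and the means were 2269.9 ± 319 against 708 ± 64.6 (SD, n = 3 each), which left 31.2% (log2 fold change -1.67 with a standard error of 0.120, adjusted p = 0.000139). Leaving out any 1 library kept the log2 fold change between -1.80 and -1.60, and the adjusted p at or below 0.00328. The locus spans chromosome 9, 21454267 to 21559698 (hg19), and the interferon gene IFNE lies inside that span. IFNE was counted at 199, 223 and 219 in si-CTRL and 109, 176 and 169 in si-SAM68 libraries (log2 fold change -0.53, adjusted p = 0.106). Strand use in counting is not given, so reads of the pair may be shared.

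MIR3142HG, a locus that the table joins with MIR146A, the hairpin of an NF-κB-induced microRNA, was counted at 1332, 818 and 1302 in si-CTRL and 483, 658 and 783 in si-SAM68 libraries. It was lower in si-SAM68 with a narrow gap, the highest si-SAM68 library lying just under si-CTRL replicate 2 (log2 fold change -0.84 with a standard error of 0.212, adjusted p = 0.0345). MIR924HG was counted at 399, 375 and 389 in si-CTRL and 259.9, 249 and 285 in si-SAM68 libraries. It lies on chromosome 18, 36786888 to 37380282, and its groups were well apart, with a smaller change than the other lower hosts (log2 fold change -0.55 with a standard error of 0.111, adjusted p = 0.0146). MIR181A1HG, which carries the miR-181a and miR-181b hairpins, went the other way at 66.2, 76.5 and 61.8 in si-CTRL and 139, 132 and 96.1 in si-SAM68 libraries. All 3 si-SAM68 libraries were above all si-CTRL libraries (log2 fold change 0.82 with a standard error of 0.194, adjusted p = 0.0269). The second miR-181 host, MIR181A2HG, had a log2 fold change of 0.30 with overlapping groups (adjusted p = 0.410).

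The row of MIR100HG, host of miR-100, let-7a and miR-125b, was weak at 20, 19.4 and 23.8 in si-CTRL and 51.4, 25.8 and 31.3 in si-SAM68 libraries. It passed the study's rule without overlap but not the adjusted threshold (log2 fold change 0.70 with a standard error of 0.312, adjusted p = 0.185), and 5 of 6 leave-one-out fits lost it, all but that without si-SAM68 replicate 2, as did the fit with the replicate block. A locus without a symbol that covers most of the same span had means of 3422 in si-CTRL and 3463 in si-SAM68 (log2 fold change 0.02, adjusted p = 0.929), so the named row need not stand for all RNA of this host. Other well expressed hosts were not called. MIR22HG was counted at 1834, 1618 and 1808 in si-CTRL and 2083, 1941 and 2269.9 in si-SAM68 libraries, with si-SAM68 above si-CTRL in every library (log2 fold change 0.26, adjusted p = 0.104). MIR155HG, host of the inflammatory miR-155, was counted at 986, 1059 and 1244 in si-CTRL and 1156, 1211 and 1490.2 in si-SAM68 libraries, with overlap (log2 fold change 0.23, adjusted p = 0.269). MIR4458HG overlapped too (log2 fold change -0.04, adjusted p = 0.832).

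PVT1, the neighbour of MYC, was counted at 2106, 2173 and 2299 in si-CTRL and 2073, 2011 and 2041 in si-SAM68 libraries. Its groups did not overlap but were close (log2 fold change -0.10, adjusted p = 0.429). H19, the imprinted host of miR-675, was weak at 87.5, 72.6 and 104 in si-CTRL and 68.5, 57.95 and 59.2 in si-SAM68 libraries and lower in every si-SAM68 library (log2 fold change -0.49, adjusted p = 0.142). The host rows say nothing of the small RNAs themselves. Of the microRNA genes inside these hosts, 18 had rows of their own, 0 of which reached a mean of 10, and the highest mean was 3.57.

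Of the LINC loci, 10 were lower and 2 higher at the adjusted threshold. The deepest falls were at weakly expressed loci. LINC00877 was counted at 32.5, 30.02 and 33.3 in si-CTRL and 4.03, 7.36 and 13.4 in si-SAM68 libraries. Its si-SAM68 libraries were all below its si-CTRL libraries but were spread widely, on few reads (log2 fold change -1.96 with a standard error of 0.418, adjusted p = 0.0181). LINC00211 was counted at 63.7, 50.4 and 57.99 in si-CTRL and 17.1, 27.6 and 26.8 in si-SAM68 libraries. The groups were apart (log2 fold change -1.25 with a standard error of 0.263, adjusted p = 0.0168). LINC00926 was counted at 94.99, 98.8 and 87.5 in si-CTRL and 40.3, 50.6 and 52.5 in si-SAM68 libraries, also apart (log2 fold change -0.96 with a standard error of 0.190, adjusted p = 0.0131), and LINC01266, on chromosome 3, 577914 to 887698, at 414, 443 and 356 in si-CTRL and 186, 234 and 244 in si-SAM68 libraries (log2 fold change -0.87 with a standard error of 0.143, adjusted p = 0.00597). Both kept an adjusted p under 0.05 with any 1 library left out.

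LINC01510 overlaps MET, which encodes the receptor of hepatocyte growth factor, and the pair moved in opposite directions. LINC01510 was counted at 72.5, 86.2 and 87.5 in si-CTRL and 11.1, 35.9 and 29.04 in si-SAM68 libraries. It was lower in each si-SAM68 library, most of all in replicate 1 (log2 fold change -1.80 with a standard error of 0.378, adjusted p = 0.0169). MET was counted at 12228, 10229.7 and 10137 in si-CTRL and 13698, 15666 and 14662 in si-SAM68 libraries, higher in all 3 si-SAM68 libraries (log2 fold change 0.44, adjusted p = 0.0178). In hg19 the table gives LINC01510 as chromosome 7, 116203650 to 116328022 and MET as 116312413 to 116438439 on the same chromosome, and GENCODE puts LINC01510 on the minus strand.

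The better expressed LINC loci that fell did so by less. LINC00707, on chromosome 10, 6821541 to 6884867, was counted at 3189.6, 3046 and 2899.5 in si-CTRL and 2070.2, 2114 and 2274 in si-SAM68 libraries (log2 fold change -0.50 with a standard error of 0.0800, adjusted p = 0.00534). LINC00839 was counted at 1094, 983 and 940.2 in si-CTRL and 705, 645 and 669 in si-SAM68 libraries (log2 fold change -0.58 with a standard error of 0.0970, adjusted p = 0.00658). Both stood clear of overlap and kept their call without any 1 library. LINC00704, also on chromosome 10, was counted at 405, 418 and 472 in si-CTRL and 334, 295 and 300.5 in si-SAM68 libraries (log2 fold change -0.48 with a standard error of 0.115, adjusted p = 0.0289). LINC00174 was counted at 441, 312 and 307 in si-CTRL and 229.7, 234 and 240.2 in si-SAM68 libraries, with si-CTRL replicate 1 well above the other controls (log2 fold change -0.57 with a standard error of 0.153, adjusted p = 0.0423). LINC00936 was counted at 445, 376 and 406 in si-CTRL and 305, 292 and 314 in si-SAM68 libraries (log2 fold change -0.42 with a standard error of 0.112, adjusted p = 0.0404). With the replicate number as a block, these last 3 no longer passed, at adjusted p = 0.0529 for LINC00704, 0.0579 for LINC00174 and 0.0588 for LINC00936.

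LINC00472, a long noncoding RNA studied as a favourable marker in breast cancer, rose. It was counted at 2981, 3088 and 3163 in si-CTRL and 4259, 4953 and 4875 in si-SAM68 libraries. All si-SAM68 libraries were above all si-CTRL libraries, with means of 3077 ± 91.5 against 4696 ± 379.8 (SD, n = 3 each) (log2 fold change 0.61 with a standard error of 0.0830, adjusted p = 0.00254). Leaving out any 1 library kept its adjusted p at or below 0.0245, while its fold change dropped just under 1.5 when si-CTRL replicate 1, si-SAM68 replicate 2 or si-SAM68 replicate 3 was omitted. The locus (chromosome 6, 72117567 to 72130448, hg19) lies inside the span of OGFRL1, which was counted at 3929.5, 3616 and 4135 in si-CTRL and 3503, 3984 and 4407 in si-SAM68 libraries with overlapping groups (log2 fold change 0.02, adjusted p = 0.914). GENCODE (GRCh38) lists the hairpin genes MIR30A and MIR30C2 inside LINC00472. The RefSeq search found 0 LINC loci with a hairpin, and whether these genes lie inside the hg19 span counted here was not checked. LINC00339 was counted at 556, 706 and 685 in si-CTRL and 899, 899.6 and 866 in si-SAM68 libraries, also without overlap (log2 fold change 0.46 with a standard error of 0.110, adjusted p = 0.0285). A weaker locus without a symbol that overlaps LINC00339 was lower in each si-SAM68 library and was not called. That locus was counted at 112.5, 86.2 and 98.9 in si-CTRL and 60.5, 76.4 and 67.0 in si-SAM68 libraries (log2 fold change -0.54, adjusted p = 0.0936).

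**Figure D2:**
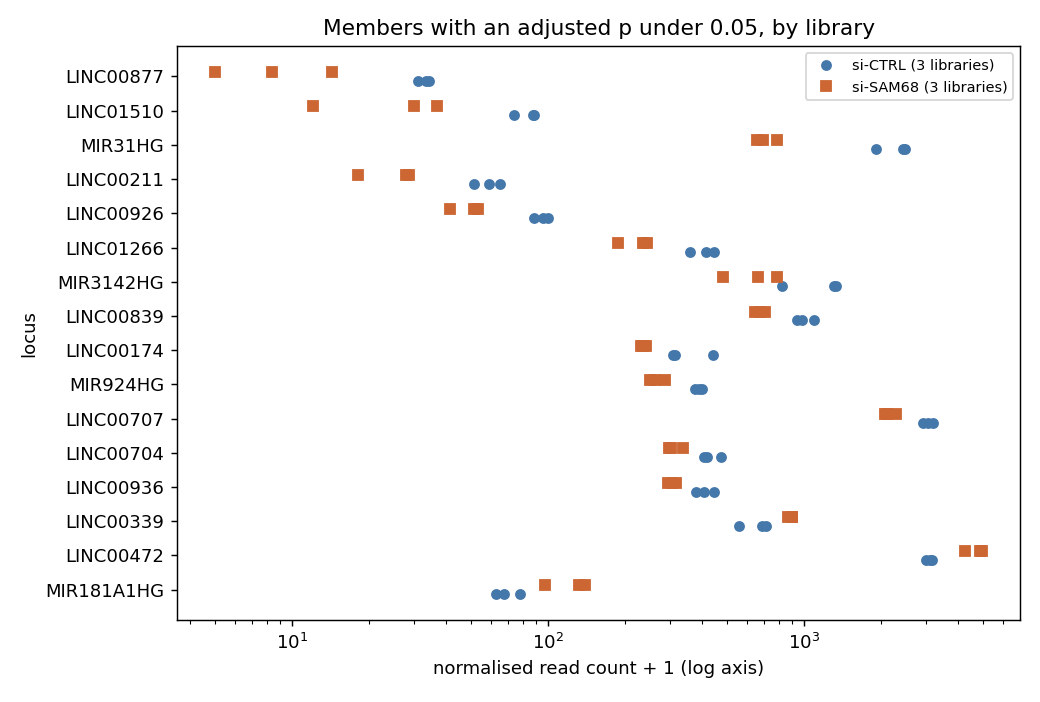
Normalised read count plus 1 (log axis) in each of the 6 libraries for the 16 loci with an adjusted p under 0.05, ordered by fold change, si-CTRL as blue circles and si-SAM68 as orange squares. The groups do not overlap at any of the 16 loci, which selection by p favours, and at MIR3142HG the gap is small, between 783 and 818.

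How far 1 library carried a call was read from fits that each left out 1 library. MIR31HG, LINC00472, LINC00707, LINC00839, LINC00926 and LINC01266 were called in all 6 such fits. LINC01510 reached an adjusted p of 0.0506 (si-CTRL replicate 3 omitted) and 0.0569 (si-SAM68 replicate 3 omitted). For MIR924HG it was 0.0521 (si-SAM68 replicate 1 omitted) and 0.0703 (si-SAM68 replicate 2 omitted). LINC00211 gave 0.0547 (si-CTRL replicate 3 omitted), 0.0525 (si-SAM68 replicate 1 omitted) and 0.0541 (si-SAM68 replicate 3 omitted). LINC00877 gave 0.0580 (si-CTRL replicate 3 omitted), 0.0516 (si-SAM68 replicate 1 omitted) and 0.0516 (si-SAM68 replicate 2 omitted). MIR181A1HG gave 0.0781 (si-CTRL replicate 3 omitted), 0.0999 (si-SAM68 replicate 1 omitted) and 0.103 (si-SAM68 replicate 2 omitted). In MIR3142HG the values were 0.0955 (si-CTRL replicate 3 omitted), 0.119 (si-SAM68 replicate 1 omitted), 0.0804 (si-SAM68 replicate 2 omitted) and 0.0637 (si-SAM68 replicate 3 omitted), and in LINC00339 they were 0.0523 (si-CTRL replicate 3 omitted), 0.0898 (si-SAM68 replicate 1 omitted), 0.103 (si-SAM68 replicate 2 omitted) and 0.0988 (si-SAM68 replicate 3 omitted). LINC00174 gave 0.0517 (si-CTRL replicate 3 omitted), 0.117 (si-SAM68 replicate 1 omitted), 0.118 (si-SAM68 replicate 2 omitted) and 0.130 (si-SAM68 replicate 3 omitted). LINC00704 and LINC00936 lost their call in most of these fits, LINC00704 at 0.0539 (si-CTRL replicate 2 omitted), 0.0996 (si-CTRL replicate 3 omitted), 0.0533 (si-SAM68 replicate 1 omitted), 0.113 (si-SAM68 replicate 2 omitted) and 0.113 (si-SAM68 replicate 3 omitted), and LINC00936 at 0.0531 (si-CTRL replicate 1 omitted), 0.0986 (si-CTRL replicate 3 omitted), 0.0977 (si-SAM68 replicate 1 omitted), 0.146 (si-SAM68 replicate 2 omitted) and 0.110 (si-SAM68 replicate 3 omitted). None of the 16 changed direction, which is no separate support, as they were selected by p with all 6 libraries. Over all loci, 842 were called higher and 1175 lower with 6 libraries, 223 and 402 without si-SAM68 replicate 3, and 1322 and 1517 without si-CTRL replicate 1. The other fits lay between the first pair of counts and the second.

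**Figure D3:**
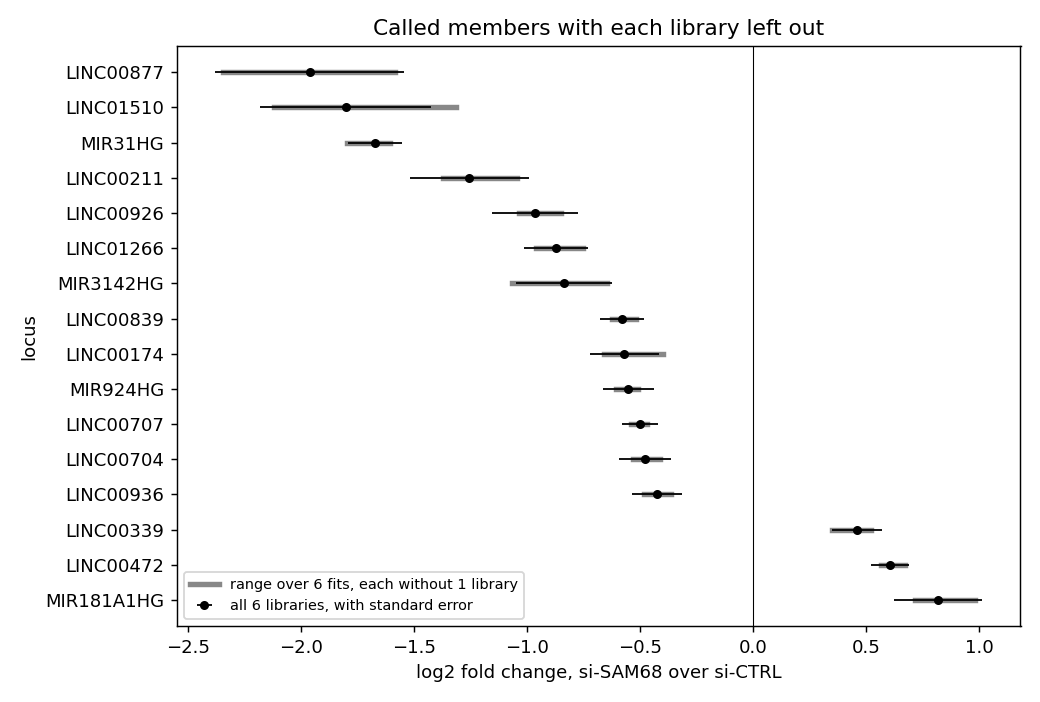
Log2 fold change of si-SAM68 over si-CTRL for the 16 called loci, with all 6 libraries (black points with the standard error) and as the range over the 6 fits that each leave out 1 library (grey bars). No range reaches 0, which selection by p with all 6 libraries favours, and that of MIR31HG stays between -1.80 and -1.60.

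A further 14 loci passed the study's rule but not the adjusted threshold. Lower were 10 LINC loci with means between 10 and 120, LINC00161, LINC00184, LINC00242, LINC00520, LINC00888, LINC00917, LINC00944, LINC01337, LINC01443 and LINC01444. LINC01443 and LINC00184 had the smallest p-values of these. LINC00184 was counted at 77.5, 71.7 and 77.95 in si-CTRL and 28.2, 43.2 and 55.9 in si-SAM68 libraries, apart between the groups (log2 fold change -0.87 with a standard error of 0.257, adjusted p = 0.0585). LINC01443 and LINC01444 overlap each other on chromosome 18 and may share reads. LINC01443 was counted at 43.7, 32.9 and 37.1 in si-CTRL and 21.2, 16.6 and 21.2 in si-SAM68 libraries (log2 fold change -0.91 with a standard error of 0.267, adjusted p = 0.0565) and LINC01444 at 94.99, 103 and 148 in si-CTRL and 71.5, 78.2 and 61.4 in si-SAM68 libraries (log2 fold change -0.68 with a standard error of 0.209, adjusted p = 0.0648). LINC00520 was the one locus of these 10 whose groups overlapped. Of the 14, LINC00184 and LINC01443 alone passed the study's rule in all 6 leave-one-out fits.

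LINC00161 was counted at 21.2, 10.7 and 14.3 in si-CTRL and 5.04, 6.44 and 5.58 in si-SAM68 libraries and LINC01337 at 18.8, 27.1 and 17.1 in si-CTRL and 6.04, 8.28 and 13.4 in si-SAM68 libraries. Both were lower in every si-SAM68 library, on few reads, with adjusted p = 0.0942 and 0.101. LINC00917 was counted at 23.8, 33.9 and 19.96 in si-CTRL and 17.1, 15.6 and 4.47 in si-SAM68 libraries (adjusted p = 0.162), LINC00944 at 58.7, 47.5 and 59.9 in si-CTRL and 40.3, 37.7 and 22.3 in si-SAM68 libraries (adjusted p = 0.111). In LINC00917 and LINC00944 the lowest library was si-SAM68 replicate 3, without which neither passed. LINC00242 was counted at 39.99, 62.96 and 65.6 in si-CTRL and 38.3, 25.8 and 35.8 in si-SAM68 libraries (adjusted p = 0.121) and LINC00888 at 105, 67.8 and 54.2 in si-CTRL and 46.3, 40.5 and 46.9 in si-SAM68 libraries (adjusted p = 0.114), with narrow gaps between the groups. Higher were LINC00950, at 20, 30.02 and 36.1 in si-CTRL and 43.3, 39.6 and 67.02 in si-SAM68 libraries (adjusted p = 0.134), and LINC00341, at 11.2, 24.2 and 24.7 in si-CTRL and 38.3, 33.1 and 29.04 in si-SAM68 libraries (adjusted p = 0.182), beside MIR100HG and MALAT1. Their groups were apart, but LINC00341 lost the rule in 4 of 6 leave-one-out fits and with the replicate block, and LINC00950 in 2 of the 6.

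LINC00094, LINC00667, LINC00921, LINC00472 and LINC00998 were the 5 LINC loci with the highest means, and apart from LINC00472, which rose, they were not called. LINC00667 was counted at 4276, 4229.6 and 4203 in si-CTRL and 4848, 4826 and 4810.1 in si-SAM68 libraries, tight within each group and a little higher in si-SAM68 (log2 fold change 0.19, adjusted p = 0.108). LINC00094, which overlaps an end of BRD3, was counted at 4374, 4558 and 4424 in si-CTRL and 4169.7, 4079 and 4191 in si-SAM68 libraries (log2 fold change -0.10, adjusted p = 0.376). LINC00921 overlapped between the groups (log2 fold change -0.03, adjusted p = 0.828). LINC00998 was counted at 1847, 2678 and 2956 in si-CTRL and 3132, 2945 and 3630.5 in si-SAM68 libraries, with si-CTRL replicate 1 far below the rest (log2 fold change 0.40, adjusted p = 0.142).

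None of the 22 tested snoRNA hosts passed either rule with limma, and 0 had an adjusted p under 0.05 by edgeR or by DESeq2. At an unadjusted p under 0.05 there were 2, SNHG1 and SNHG12, both below a fold change of 1.5. Their log2 fold changes lay between -0.27 and 0.31, and GENCODE placed at least 1 snoRNA gene inside 20 of the 21 that it lists. SNHG1, host of a cluster of box C/D snoRNAs, was counted at 5387, 5201 and 5621 in si-CTRL and 6239.9, 5954 and 6659.9 in si-SAM68 libraries. It was higher in every si-SAM68 library by a small margin (log2 fold change 0.22 with a standard error of 0.0760, adjusted p = 0.0989). GAS5, host of another C/D cluster and known to build up when growth or translation stops, was counted at 4878, 5774 and 6212 in si-CTRL and 6099, 6356 and 6867 in si-SAM68 libraries. Si-SAM68 replicate 1 fell among the controls, so the groups overlapped (log2 fold change 0.20 with a standard error of 0.0990, adjusted p = 0.223).

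ZFAS1, host of the SNORD12 family, was counted at 5472, 5988 and 6939.8 in si-CTRL and 5912, 6169.7 and 6601 in si-SAM68 libraries. The groups overlapped throughout (log2 fold change 0.03, adjusted p = 0.887). ZNFX1, which overlaps ZFAS1, was lower in every si-SAM68 library (log2 fold change -1.16, adjusted p = 0.000182). ZNFX1 was counted at 2847, 2556 and 2506 in si-CTRL and 1117, 1257.5 and 1154 in si-SAM68 libraries. DANCR, a host known for holding back differentiation, was counted at 1849.8, 1960.3 and 2198 in si-CTRL and 2131, 1884 and 1942 in si-SAM68 libraries, again with overlap (log2 fold change -0.01, adjusted p = 0.958). The top counts in the class belonged to 2 loci that the table joins with protein-coding genes, so that reads of those genes are included. MATR3 with SNHG4 was counted at 26373, 26066 and 27124 in si-CTRL and 24906, 25927 and 28256 in si-SAM68 libraries (log2 fold change -0.01, adjusted p = 0.948) and SEC14L1 with SNHG20 at 10764, 10342 and 9334 in si-CTRL and 11039, 10927 and 10895 in si-SAM68 libraries (log2 fold change 0.11, adjusted p = 0.373). Without these and RCC1 with SNHG3, the median log2 fold change over the other 19 hosts was 0.08, with 12 higher and 7 lower.

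The positive median of the snoRNA hosts turned negative without si-CTRL replicate 1. Measured as the difference from the mean over all 6 libraries on the log2 scale, the hosts had a median of -0.19 there, while each of the other libraries had one between -0.01 and 0.09. Without si-CTRL replicate 1 the median log2 fold change turned to -0.04, with 9 of 22 hosts higher and 13 lower, and SNHG7 then passed the adjusted threshold as lower (log2 fold change -0.42, adjusted p = 0.0257). Without any other single library the median stayed between 0.05 and 0.13. SNHG7, SNHG19 and SNHG5 were chosen here after their values were seen. SNHG7 was counted at 602, 997 and 924 in si-CTRL and 822, 684 and 649 in si-SAM68 libraries, SNHG19 at 298, 586 and 609 in si-CTRL and 518, 493 and 541 in si-SAM68 libraries and SNHG5 at 2258, 3462 and 3402 in si-CTRL and 3546, 3355 and 3681 in si-SAM68 libraries. In all 3, si-CTRL replicate 1 was the lowest library. All members with a transcript length in GENCODE were also split by that length. Below 1000 bases (45 loci) si-CTRL replicate 1 had a median of -0.05. The second control library stood at 0.16 for these short members, the third at 0.13. Their si-SAM68 medians were -0.02, -0.02 and -0.06 by replicate number, so si-CTRL replicate 1 lay within the si-SAM68 range. The 93 members over 2500 bases had medians between -0.04 and 0.04 in all libraries. The part of length in the result was not tested.

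**Figure D4:**
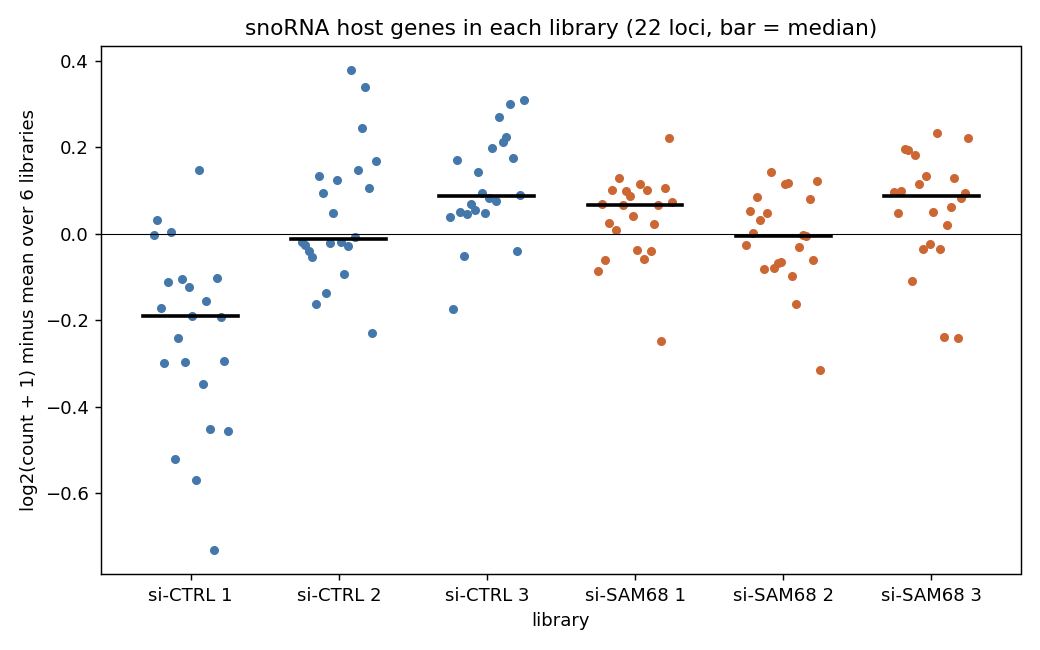
Deviation of each of the 22 snoRNA hosts from its mean over the 6 libraries, as log2(normalised read count + 1), by library, si-CTRL in blue and si-SAM68 in orange, the black bar marking the median. The bar of si-CTRL replicate 1 is at -0.19, and the bars of the other libraries are between -0.01 and 0.09.

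snoRNA genes that have rows of their own inside these hosts were weak in these libraries of polyadenylated RNA. Rows were taken by GENCODE or, since GENCODE places none of these snoRNA genes in GAS5 and does not list SNHG24, by the table's own spans, which was decided with the values in view. Of these, 26 were tested, with means between 10.2 and 206, and 0 had an adjusted p under 0.05 by limma, edgeR or DESeq2 (2 at an unadjusted limma p under 0.05). The 6 tested rows inside GAS5 had log2 fold changes between 0.02 and 0.65. Over the 26 rows the median was 0.335, 22 being higher. It was 0.14 over the 9 rows with a mean of at least 50, and between 0.25 and 0.33 with single libraries left out. Reads on these rows can come from unspliced host RNA as well as from snoRNAs, which cannot be told apart here. The 156 tested snoRNA rows of the whole table that were no members had a median of 0.14, 106 being higher, and 0 adjusted calls by limma, edgeR or DESeq2 (8 at an unadjusted limma p under 0.05). These 156 include most of the 26 rows inside hosts, so the 2 sets are not separate.

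MALAT1, a nuclear speckle RNA whose 3′ end is a triple helix in place of a poly(A) tail, had the highest fold change among members with a mean of at least 1000, with 1 library far above the rest. It was counted at 38132, 38224 and 35022 in si-CTRL and 48033, 150775 and 46116 in si-SAM68 libraries. Si-SAM68 replicates 1 and 3 were moderately above the controls, and replicate 2 was far above all other libraries. MALAT1 passed the study's rule but not the adjusted threshold (log2 fold change 0.90 with a standard error of 0.363, adjusted p = 0.143). Without si-SAM68 replicate 2 the log2 fold change was 0.34 (adjusted p = 0.0774) and the rule was no longer met, nor was it without si-CTRL replicate 3.

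The same library was rich in other RNAs that were listed as lacking a poly(A) tail. Of 20 tested loci of that list (the rRNA locus RNA45S5, RMRP, RPPH1 and 17 histone genes), all 20 were highest in si-SAM68 replicate 2. Whether each histone RNA lacks a tail in these cells was not checked. Their summed count, nearly all of it from the rRNA locus, was 11506016 there, against 1213801 to 2099414 in the other libraries. The median log2 fold change of the 20 was 0.90 with all libraries and 0.17 without si-SAM68 replicate 2. In this list HIST1H1C (0.64, adjusted p = 0.00929) and HIST1H2BK (0.33, adjusted p = 0.0390) rose, and HIST1H2BK lost its call in 5 of 6 leave-one-out fits and with the replicate block (adjusted p = 0.0532). Neither stood far out in si-SAM68 replicate 2. In the si-SAM68 libraries HIST1H1C was counted at 2502, 3191 and 2540 and HIST1H2BK at 3994, 4578 and 4010. How much of the MALAT1 value goes with this library was not tested beyond leaving it out.

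**Figure D5:**
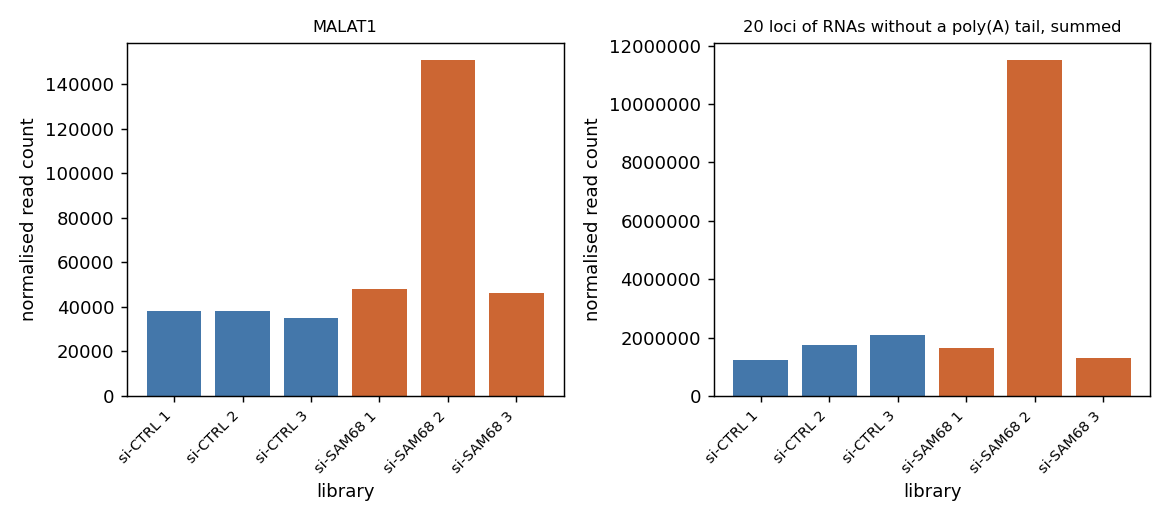
Normalised read count of MALAT1 (left) and of 20 loci listed as RNAs without a poly(A) tail, summed (right), in each library, si-CTRL in blue and si-SAM68 in orange. MALAT1 is at 150775 in si-SAM68 replicate 2 against 35022 to 48033 elsewhere, and the summed count is highest in the same library.

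NEAT1, the scaffold of paraspeckles, was counted at 47529, 37245 and 37289 in si-CTRL and 39434, 37868 and 38242 in si-SAM68 libraries. The groups overlapped, with si-CTRL replicate 1 the highest (log2 fold change -0.07, adjusted p = 0.699). The table gives this locus a span of chromosome 11, 65188828 to 65836382 (hg19), which takes in 31 other tested loci, MALAT1 among them, so its count may hold reads of other genes. It is not the sum of reads over that span, as CFL1 inside it had a si-CTRL mean of 67951 against 40687.5 for NEAT1. NORAD, which binds PUMILIO proteins in the cytoplasm, was counted at 86966, 105402 and 110487 in si-CTRL and 90934, 99909 and 107422 in si-SAM68 libraries. Its groups overlapped (log2 fold change -0.02, adjusted p = 0.936). Per kb of the longest GENCODE transcript, the mean level over 6 libraries was 18765 for NORAD, against 5749 for ZFAS1, 3552 for GAS5 and 1999 for MIR31HG. That of MALAT1 was 6819 with all libraries and 4720 without si-SAM68 replicate 2, above ZFAS1 in the first case and below it in the second.

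MEG3, the imprinted RNA of chromosome 14, was counted at 5509, 4469 and 4919.7 in si-CTRL and 4615, 3926 and 3971 in si-SAM68 libraries. One si-SAM68 library reached into the controls, and the change was not called (log2 fold change -0.25 with a standard error of 0.1, adjusted p = 0.140). TUG1 was counted at 4326, 3171 and 2947 in si-CTRL and 3439, 3723 and 3420.4 in si-SAM68 libraries, with the controls spread around the si-SAM68 values (log2 fold change 0.04, adjusted p = 0.882). MIAT was counted at 959, 956 and 964 in si-CTRL and 1096, 1052 and 1018 in si-SAM68 libraries, a little higher in each si-SAM68 library (log2 fold change 0.14, adjusted p = 0.325). For NEAT1, NORAD, TUG1, DANCR and ZFAS1 the sign of the fold change turned when single libraries were left out.

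The proteins that act on these RNAs were read from lists of genes. Of 18 snoRNP and Cajal body proteins, 0 had an adjusted p under 0.05 by limma, edgeR or DESeq2 (median log2 fold change -0.04, 2 at an unadjusted limma p under 0.05). Of 34 protein-coding snoRNA host and 5′ terminal oligopyrimidine genes, there were likewise 0 by each tool (0.05, 7 unadjusted). Of 18 paraspeckle and speckle proteins there were 0 by limma and edgeR and 1 by DESeq2 (-0.06, 4 unadjusted). Among 17 nonsense-mediated decay factors (-0.02), NBAS alone was called, while 2 were higher and 1 lower with the replicate number as a block. NBAS was counted at 3292, 3316 and 3317 in si-CTRL and 3957, 4296 and 4146 in si-SAM68 libraries, higher without overlap (log2 fold change 0.32 with a standard error of 0.0720, adjusted p = 0.0225), and lost its call in 4 of 6 leave-one-out fits. Of 15 microRNA processing and effector proteins (0.05), 1 was higher and 2 lower at the adjusted threshold. Over all loci tested 10.7% were called, the share to set beside each of these short lists.

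These 3 belong to the silencing complex that loads microRNAs, of which AGO1, AGO2, TNRC6B and TNRC6C were also listed and were not called. AGO3, an Argonaute protein, was counted at 844, 878 and 748 in si-CTRL and 356, 444 and 410.0 in si-SAM68 libraries, lower in every si-SAM68 library (log2 fold change -1.03 with a standard error of 0.117, adjusted p = 0.00101). AGO4, from the same family, was counted at 479.9, 395 and 421 in si-CTRL and 744, 744 and 657 in si-SAM68 libraries, higher in every si-SAM68 library (log2 fold change 0.73 with a standard error of 0.112, adjusted p = 0.00430). TNRC6A, the GW182 protein that Argonautes recruit, was counted at 8119, 7486 and 6678 in si-CTRL and 4658, 4842 and 4673 in si-SAM68 libraries (log2 fold change -0.65 with a standard error of 0.0850, adjusted p = 0.00207), with no overlap. The 87 tested microRNA rows of the table that were no members had a median log2 fold change of -0.01, with 2 higher and 3 lower at the adjusted threshold. Over all loci tested 4.47% were called higher and 6.23% lower.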

How the data were processed

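One table was deposited for the 6 libraries. In it the authors gave a normalised signal, made before deposit by dividing the reads on each FAST DB locus (hg19) by the DESeq2 size factor of the library, per the file name and the study's methods. The submitters' processing notes name STAR 2.4.0, SAMtools, Picard, FastQC and DESeq2. The use of strand in counting is not given in the sources used here. All values (100%) were whole multiples of 1 step per library within 0.01 reads, and were taken as reads.

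Loci with a mean of at least 10 were tested with limma 3.58.1 in R 4.3.3 (eBayes with a trend) on log2(normalised read count + 1), which understates changes at low counts. P-values were adjusted by Benjamini-Hochberg over all 18849 loci. On the recovered reads, edgeR 4.0.16 (quasi-likelihood) gave 2026 loci an adjusted p under 0.05 and DESeq2 1.42.0 gave 2789 (2209 without an adjusted p), against 2017 by limma. The programs were tested on simulated data. Alternatives were other pseudocounts (0.1 and 5), filters, scalings, a robust trend, a replicate block, single libraries left out, a fold of 2 and loci with 1 symbol and no overlap. Deviations from the group means correlated at 0.105, 0.231 and 0.125 between same-numbered libraries and at or below 0.007 otherwise. Centring within each group ties these values to each other, and they are small. They do not settle whether the numbers pair the libraries, and the labels give no reason to pair them.

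Named were KHDRBS1, members with an adjusted p under 0.05, members passing the study's rule without overlap between groups, the 5 best expressed of each class, the 11 listed singly, and at most 4 genes with an adjusted p under 0.05 of each list. One listed marker is not reported here. Other names were chosen after their values were seen. The members and lists were chosen with earlier results of these data known. Of the tested members, 240 had a transcript length in GENCODE. Within-group libraries differed by at least 8.4 times the sampling variance (chi-square per degree of freedom). Of the tested members 36 carried several symbols and 89 overlapped another tested locus.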

Additional observations from a re-analysis of the deposited data

How the results depend on the processing

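KHDRBS1 kept its direction and its call under every alternative run. The count of 6 members higher at the study's rule was 3 with DESeq2, 3 with a minimum mean of 50, 13 without a filter, 0 at a fold of 2, 3 among loci with 1 symbol and no overlap, and 3 to 8 with single libraries left out. The count of 17 lower was 9 with a minimum mean of 50, 27 without a filter, 7 at a fold of 2 and 11 among loci with 1 symbol and no overlap. The 3 adjusted calls higher were 1 among loci with 1 symbol and no overlap, and 1 to 7 with single libraries left out (7 without si-CTRL replicate 1). The 13 lower were 6 to 15 with single libraries left out. Of the 16 adjusted calls, 16 remained with edgeR, TMM factors, a robust trend and both pseudocounts, 15 of 15 with DESeq2 (1 had no adjusted p), 14 of 14 at a minimum mean of 50, 14 with quantile normalization and 13 without a filter. With the replicate number as a block 13 remained, the lost ones being LINC00174 (log2 fold change -0.57), LINC00704 (-0.48) and LINC00936 (-0.42), and LINC00341 and MIR100HG no longer met the study's rule (4 higher in place of 6). Of the listed genes, KRT8 and HIST1H2BK lost their call with the block, and SMG1, DHX34, HIST1H1D and HIST1H3B gained one. The block changed no other call among the named loci. No scaling moved the median of all loci by more than 0.01. The sign turned for uncalled loci near 0 when single libraries were left out, with fold changes on the log2 scale from -0.066 to 0.058 for DANCR, -0.075 to 0.029 for LINC00921, -0.103 to 0.009 for MIR4458HG, -0.129 to 0.047 for NEAT1, -0.122 to 0.051 for NORAD, -0.061 to 0.03 for SNHG4, -0.071 to 0.205 for TUG1 and -0.051 to 0.12 for ZFAS1. The cause was not tested. With 3 libraries per group, and reads of hg19 loci that can overlap, small changes of weak loci were not detectable.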
